A study of Mus musculus with 8 samples.

Results

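Apolipoproteins are the proteins that coat lipid particles in blood. Those that the liver makes build high-density lipoprotein, steer the enzymes that empty triglyceride-rich particles, or bring particle remnants back to liver receptors. Apolipoprotein B is the large structural protein of very-low-density lipoprotein, and the smaller apolipoproteins described here ride on the particles it forms or on high-density lipoprotein. A set of 10 such genes was listed by Ensembl ID: Apoa1, Apoa2, Apoa4, Apoa5, Apoc1, Apoc2, Apoc3, Apoc4, Apoe and Apom. Of the 10, 9 were among the 22361 probe sets of the deposited table, and Apoc4 (ENSMUSG00000074336_at) was not analysed here. The table carries Ensembl IDs without gene names, and the gene table used here held an Ensembl ID for 0 of its 49997 genes, so the names are those the members were listed with, and Apob was matched to its ID from general knowledge of mouse Ensembl IDs.

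Liver RNA was measured on 8 Affymetrix arrays, 1 for each mouse. All mice were female C57BL/6 of unstated age on a standard diet. SPC3833, an antisense oligonucleotide whose target the labels do not name, was given intravenously at 5 mg/kg on 3 consecutive days to 4 mice, and the 4 control mice were labelled saline. The labels place the measurement on day 4 in the study design and sacrifice on day 3 in the treatment protocol, with the first dose on day 0. Each probe set is called a gene below, and its value is a log2 expression level. The liver identity of the samples could not be checked against named marker genes, since none of the marker IDs was paired with a name. All 9 apolipoprotein genes were bright in saline livers, from percentile 97.7 of all genes upward. In RNA from whole liver, fewer cells of a type and less RNA per cell cannot be told apart.

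The mean over all genes was 5.88 on SPC3833 replicate 2 and 5.77 to 5.80 on the other 7 arrays. SPC3833 replicate 4 stood apart at the bright end of the scale, where its highest value was 13.20, against 14.06 to 14.18 on the other 7 arrays. The part of this array in the apolipoprotein values is given below, with and without it.

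Most of these genes lie beside one another. In RefSeq (GRCm38.p6), Apoa1, Apoc3, Apoa4 and Apoa5 are neighbours on chromosome 9, and Apoc2, Apoc4, Apoc1 and Apoe are neighbours on chromosome 7. Apoa2 is on chromosome 1 and Apom on chromosome 17. A predicted gene, Gm44805, overlaps Apoc2 and Apoc4, so signal from it and from Apoc2 may not be separable. RefSeq promoters were matched by symbol for 8 of the 10 genes, all but Apoc1 and Apoc3. Hepatocyte nuclear factor 4 alpha, a nuclear receptor that drives many liver genes, is known to act on apolipoprotein genes. Nuclear receptors bind repeats of a short element. The 250 bases before the transcription start are shown for the genes with the highest and the lowest log2 fold change, Apom (chr17:35131802-35132051, minus strand) and Apoa1 (chr9:46228380-46228629, plus strand), with matches to the half-sites AGGTCA and GGGTCA and to the TATA element TATAAA in capitals.
Apom: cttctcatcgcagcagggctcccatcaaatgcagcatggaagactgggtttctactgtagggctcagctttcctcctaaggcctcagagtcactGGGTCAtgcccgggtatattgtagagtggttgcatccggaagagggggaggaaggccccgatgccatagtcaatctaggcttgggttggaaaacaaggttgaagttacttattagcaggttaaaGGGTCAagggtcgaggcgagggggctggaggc
Apoa1: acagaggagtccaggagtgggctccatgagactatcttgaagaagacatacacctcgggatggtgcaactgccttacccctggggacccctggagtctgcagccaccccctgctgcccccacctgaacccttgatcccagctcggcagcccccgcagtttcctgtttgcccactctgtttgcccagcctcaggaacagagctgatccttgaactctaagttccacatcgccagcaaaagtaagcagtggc

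The Apom window held GGGTCA at 2 places, beginning 156 and 32 bases before the start, and the Apoa1 window held none of the 3 motifs. GGGTCA was not limited to Apom. It also stood at 2 places in each of the 2 Apoa5 windows, which overlap, and at 1 place in 1 of the 3 Apoe windows. The log2 fold changes of Apoa5 and Apoe were -0.15 and -0.18 (limma adjusted p = 0.645 and 0.729). That of Apoe was 0.06 without SPC3833 replicate 4. The direction of these genes is not settled, so the matches cannot decide whether GGGTCA goes with the sign of a change. AGGTCA stood in windows of Apoa2, Apoc2 and Apoc4, and TATAAA in windows of Apoa2, Apoa5 and Apoe. On either strand and in windows of the same length, GGGTCA occurred in 11.6% of all 32851 RefSeq promoters, AGGTCA in 14.0% and TATAAA in 12.4%. The motifs share no stretch longer than GGTCA. A match is only a match of letters, and a window without one may still hold a variant site. Neither Apom nor Apoa1 passed the test of the deposited values described below. These motifs were chosen with the sequences and the results in view.

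The comparison asked whether the apolipoprotein genes other than Apob responded to SPC3833. None of the 9 passed the test. With limma on all 22361 genes at a Benjamini-Hochberg adjusted p under 0.05, 0 of 9 were higher and 0 of 9 were lower. Over all genes the same test called 4.07%, with 2.33% higher and 1.74% lower, and a count of 0 among 9 genes is near that background. At an unadjusted p under 0.05, Apom and Apoc1 were higher (2 of 9, against 10.9% of all genes) and Apoa1 was lower (1 of 9, against 6.30%), together 3 of 9 against 17.2%. The balance of all called genes moved with the scaling: 57.2% of them were higher as deposited, 36.2% with arrays centred at their medians, 45.3% with arrays centred at their 75th percentiles, 42.6% after quantile normalization and 40.7% after cyclic loess. Among the 9, the median change was -0.03 on the log2 scale, against 0.03 among all genes. Single genes ran from -0.33 for Apoa1 to 0.36 for Apom.

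Apob (ENSMUSG00000020609_at), which encodes the structural protein of very-low-density lipoprotein, moved on another scale. Its log2 expression was 12.45, 12.46, 12.44 and 12.49 on the saline arrays and 9.72, 10.02, 9.55 and 9.48 on the SPC3833 arrays. Its log2 fold change was -2.76 (95% interval -3.01 to -2.51, limma adjusted p = 2.22e-07). The 95% intervals of the 9 other apolipoprotein genes lay between -0.64 and 0.59, so none reached the interval of Apob.

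**Figure D1:**
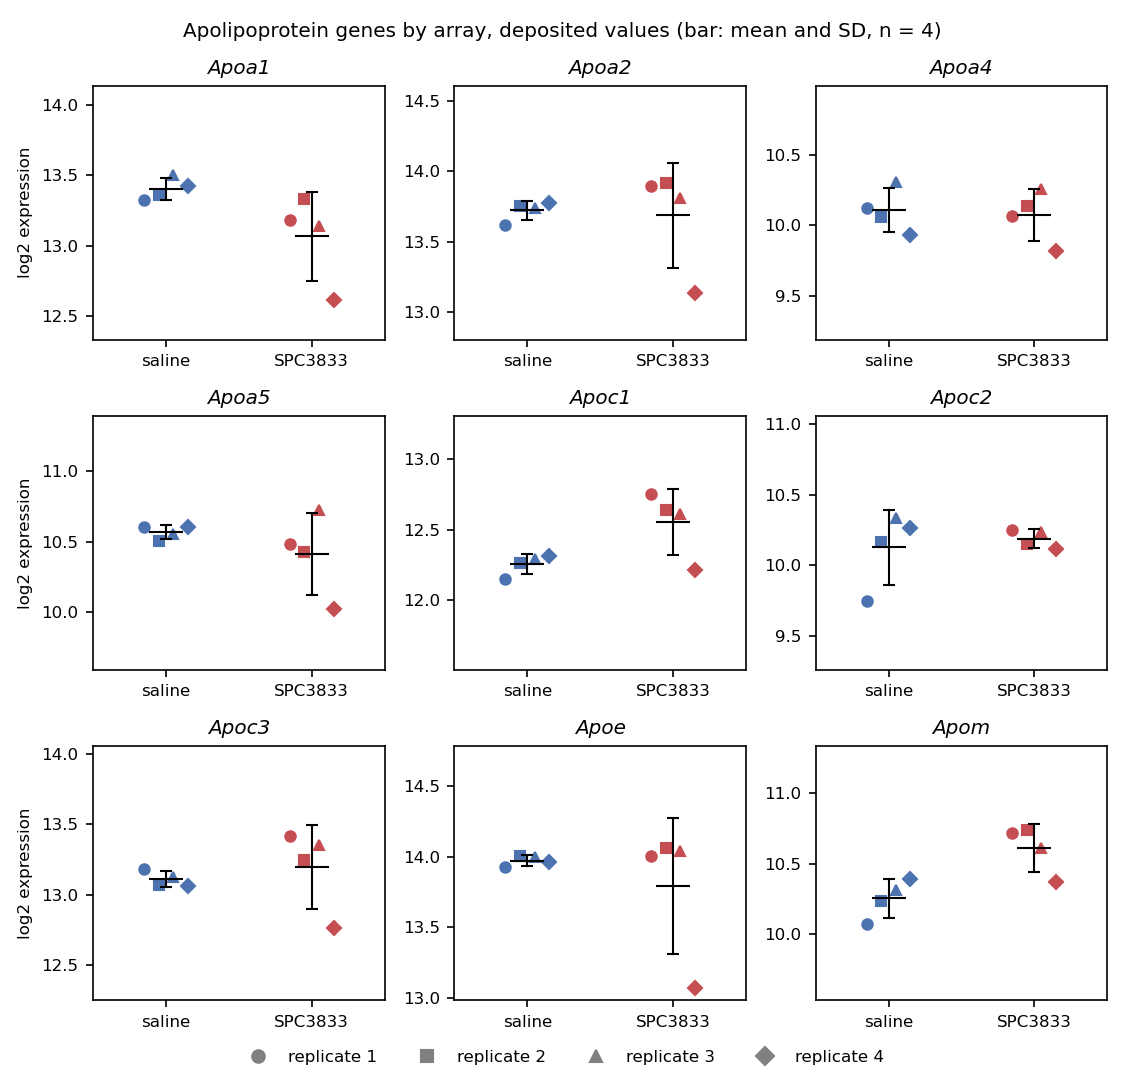
Log2 expression (vertical axis, every panel spanning a range of the same size) of the 9 apolipoprotein genes on the 4 saline arrays (blue) and the 4 SPC3833 arrays (red), with marker shapes for replicate numbers and black bars for the mean and SD of each group (n = 4). SPC3833 replicate 4 (diamond) was the lowest SPC3833 array for all 9 genes, and the groups overlapped in every panel.

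Apom (ENSMUSG00000024391_at) encodes a lipocalin of high-density lipoprotein that carries sphingosine 1-phosphate, and it came closest to the threshold. Its log2 expression was 10.07, 10.23, 10.32 and 10.39 with saline and 10.72, 10.74, 10.61 and 10.37 with SPC3833. The first 3 SPC3833 arrays lay above every saline array, and replicate 4 lay just below the highest saline value. The means were 10.25 ± 0.14 and 10.61 ± 0.17 (SD, n = 4 each). The 1.28-fold difference, 0.36 on the log2 scale (95% interval 0.12 to 0.59, SE 0.108), did not pass the test (limma adjusted p = 0.0961). It passed where only the 11180 genes above the median gene were tested (limma adjusted p = 0.0406). That fit also called a larger share of all genes, with 932 of 11180 higher, against 521 of 22361 in the main fit. Among the members it called 1 of 9 higher. For Apom the two-sided exact permutation p was 0.0571, and the smallest that 4 against 4 arrays allow is 0.0286.

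Apoa1 (ENSMUSG00000032083_at) encodes the main protein of high-density lipoprotein, which takes up cholesterol from cells. Its log2 expression was 13.32, 13.36, 13.50 and 13.43 on the saline arrays. On the SPC3833 arrays it was 13.19, 13.33, 13.14 and 12.61. Replicates 1, 3 and 4 lay below every saline array, replicate 4 by far the most, and replicate 2 lay inside the saline range. The means were 13.40 ± 0.08 and 13.07 ± 0.31 (SD, n = 4 each). They differed by -0.33 on the log2 scale (95% interval -0.64 to -0.03, SE 0.138, limma adjusted p = 0.232), and without SPC3833 replicate 4 by -0.18 (95% interval -0.38 to 0.02, limma adjusted p = 0.363). With all 8 arrays the exact permutation p was 0.0571.

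Apoa2 (ENSMUSG00000005681_at) encodes the next most abundant protein of high-density lipoprotein. It read 13.62, 13.75, 13.74 and 13.78 with saline and 13.89, 13.91, 13.81 and 13.13 with SPC3833. Replicates 1 to 3 lay above all saline arrays and replicate 4 below all of them. Its fold change was -0.03 on the log2 scale (95% interval -0.37 to 0.30, limma adjusted p = 0.956). Without SPC3833 replicate 4 it was 0.15 (95% interval -0.04 to 0.34, limma adjusted p = 0.431), so even its sign rested on that array.

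The C apolipoproteins set how fast triglyceride is taken from particles. Apoc1 (ENSMUSG00000040564_at), which inhibits the clearance of remnants, read 12.15, 12.27, 12.30 and 12.31 with saline and 12.75, 12.64, 12.61 and 12.22 with SPC3833. As for Apom, 3 SPC3833 arrays lay above all saline arrays, and replicate 4 fell inside the saline range. The means were 12.26 ± 0.07 and 12.55 ± 0.23 (SD, n = 4 each). The 1.23-fold difference, 0.30 on the log2 scale (95% interval 0.05 to 0.55, SE 0.115, limma adjusted p = 0.195), had an exact permutation p of 0.114.

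Apoc3 (ENSMUSG00000032081_at) slows lipoprotein lipase and the uptake of particles by the liver. Its log2 expression was 13.18, 13.07, 13.13 and 13.06 with saline and 13.42, 13.25, 13.35 and 12.77 with SPC3833. Replicates 1 to 3 again lay above every saline array and replicate 4 below every one. With all arrays the log2 fold change was 0.09 (95% interval -0.20 to 0.37, limma adjusted p = 0.831), and it was 0.23 (95% interval 0.04 to 0.42, limma adjusted p = 0.211) without replicate 4.

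Apoc2 (ENSMUSG00000002992_at) activates lipoprotein lipase. It was the member whose SPC3833 arrays lay closest together, at 10.25, 10.15, 10.24 and 10.12. The saline arrays spread more widely, at 9.74, 10.16, 10.33 and 10.27, with replicate 1 the lowest. The groups differed by 0.06 on the log2 scale (95% interval -0.21 to 0.33, limma adjusted p = 0.882). Without saline replicate 1 it was -0.07 (limma adjusted p = 0.804).

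Apoa5 (ENSMUSG00000032079_at), which promotes lipolysis and is made almost only in liver, read 10.60, 10.50, 10.55 and 10.60 with saline and 10.48, 10.43, 10.72 and 10.02 with SPC3833. The SPC3833 arrays lay on both sides of the narrow saline range. Their means differed by -0.15 on the log2 scale (95% interval -0.43 to 0.13, limma adjusted p = 0.645), and by -0.02 without SPC3833 replicate 4.

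Apoa4 (ENSMUSG00000032080_at) is made in intestine and, in mice, also in liver, and travels on chylomicrons and high-density lipoprotein. It read 10.12, 10.06, 10.31 and 9.93 with saline and 10.07, 10.13, 10.26 and 9.82 with SPC3833. These ranges overlapped almost entirely, and the log2 fold change was -0.04 (95% interval -0.29 to 0.21, limma adjusted p = 0.938). Without SPC3833 replicate 4 it was 0.05 (limma adjusted p = 0.878).

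Apoe (ENSMUSG00000002985_at), the ligand by which remnants bind the low-density lipoprotein receptor, was the member with the tightest saline values, at 13.93, 14.01, 14.00 and 13.96. With SPC3833 it read 14.00, 14.06 and 14.04 on replicates 1 to 3 and 13.07 on replicate 4. The SD between SPC3833 mice was 0.485 with replicate 4 and 0.0312 without it. The log2 fold change was -0.18 (95% interval -0.60 to 0.24, limma adjusted p = 0.729) with all arrays and 0.06 (95% interval -0.12 to 0.24, limma adjusted p = 0.773) without replicate 4.

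**Figure D2:**
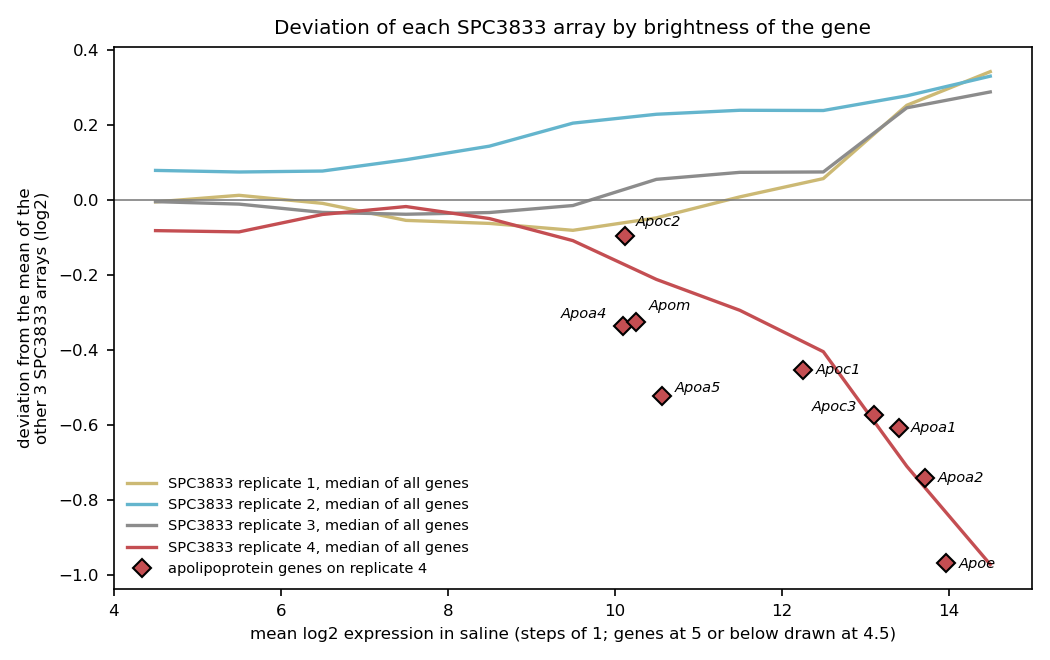
Deviation of each SPC3833 array from the mean of the other 3 SPC3833 arrays (vertical axis, log2) against mean log2 expression in saline (horizontal axis). Lines join medians of all genes in steps of 1 log2 unit, and diamonds are the 9 apolipoprotein genes on replicate 4, which ran from -0.10 for Apoc2 to -0.97 for Apoe.

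Replicate 4 was the lowest of the SPC3833 arrays for 9 of 9 apolipoprotein genes and for 38.4% of all genes. Most of all genes were dimmer than any member, and the share among genes as bright as the members was not counted. The size of the gap followed the brightness of the genes in general. For the 27 genes between 13 and 14 in saline, the median deviation of replicate 4 from the other SPC3833 arrays was -0.71. The 4 members in that range deviated by -0.61 (Apoa1), -0.74 (Apoa2), -0.57 (Apoc3) and -0.97 (Apoe). Apoc1 deviated by -0.45, against a median of -0.40 for the 54 genes between 12 and 13. For the 334 genes between 10 and 11, the median was -0.21 and the 10th and 90th percentiles were -0.47 and 0.07. Apoc2, Apom and Apoa4 lay within that span at -0.10, -0.32 and -0.34, and Apoa5 lay below it at -0.52. Whether the low readings of this mouse came from its array or from its liver was not tested.

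Without SPC3833 replicate 4, 4 of 9 members (Apoa2, Apoc1, Apoc3 and Apom) had SPC3833 values wholly above the saline values and 0 of 9 wholly below. Of all genes, 15.9% had groups apart on these 7 arrays, 10.8% higher and 5.04% lower. With all 8 arrays the groups were apart for 0 of 9 members and for 11.7% of all genes. Leaving out an array that read low for bright genes raises the SPC3833 means of bright genes in general, so the 4 are given as a description. Apoc1 and Apom passed the test in that fit. They differed by 0.41 on the log2 scale for Apoc1 (SE 0.0874, limma adjusted p = 0.0362) and by 0.44 for Apom (SE 0.0992, limma adjusted p = 0.0473). That fit called 2 of 9 members and 1.38% of all genes higher, and 0 of 9 members and 1.20% of all genes lower.

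**Figure D3:**
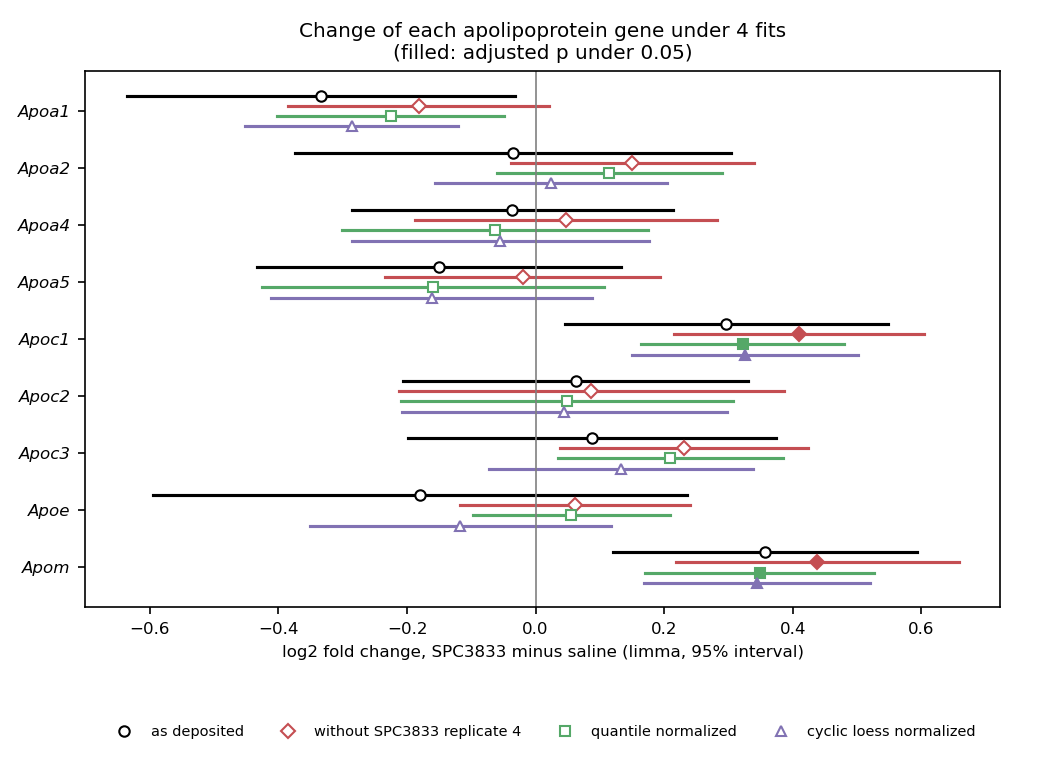
Log2 fold change, SPC3833 minus saline (horizontal axis), with its 95% interval from limma for each of the 9 apolipoprotein genes under 4 fits, filled where the adjusted p was under 0.05. Apom and Apoc1 were the members past the threshold in the 3 fits other than that of the deposited values, and Apoa2, Apoa4 and Apoe changed sign between fits.

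Scaling the arrays to one another by brightness gave a like picture with all 8 mice kept. After quantile normalization, which gives every array the same distribution, Apoc1 was higher by 0.32 (SE 0.0711, limma adjusted p = 0.0293) and Apom by 0.35 (SE 0.0806, limma adjusted p = 0.0353). Cyclic loess normalization is meant to reduce brightness-dependent differences between arrays. After cyclic loess, Apoc1 was higher by 0.33 (limma adjusted p = 0.0444) and Apom by 0.34 (limma adjusted p = 0.0358). Each of these fits called 2 of 9 members higher, against 2.03% and 1.97% of all genes. No member was called lower in either fit, against 2.74% and 2.87% of all genes.

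On the cyclic loess scale Apom read 10.14, 10.25, 10.29 and 10.34 with saline and 10.73, 10.58, 10.59 and 10.51 with SPC3833. Apoc1 read 12.19, 12.23, 12.26 and 12.26 with saline and 12.74, 12.45, 12.55 and 12.51 with SPC3833. For both genes every SPC3833 array then lay above every saline array, replicate 4 included. Apoa1 read 13.34, 13.30, 13.46 and 13.37 with saline and 13.16, 13.13, 13.06 and 12.97 with SPC3833 on this scale. Its groups were apart in the other direction. The difference of -0.29 on the log2 scale (95% interval -0.45 to -0.12, SE 0.0747) did not pass the test (limma adjusted p = 0.0570). Replicate 4 was still the lowest SPC3833 array for the brightest members, Apoe, Apoa2 and Apoa1, but not for Apoc3. It read 13.49 for Apoe, against 13.86 to 13.96 on the other SPC3833 arrays, and 13.53 for Apoa2, against 13.71 to 13.85. Cyclic loess without SPC3833 replicate 4 gave -0.24 for Apoa1 (limma adjusted p = 0.136). After either normalization 3 of 9 members had groups apart, namely Apoa1, Apoc1 and Apom, against 13.0% of all genes in both.

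**Figure D4:**
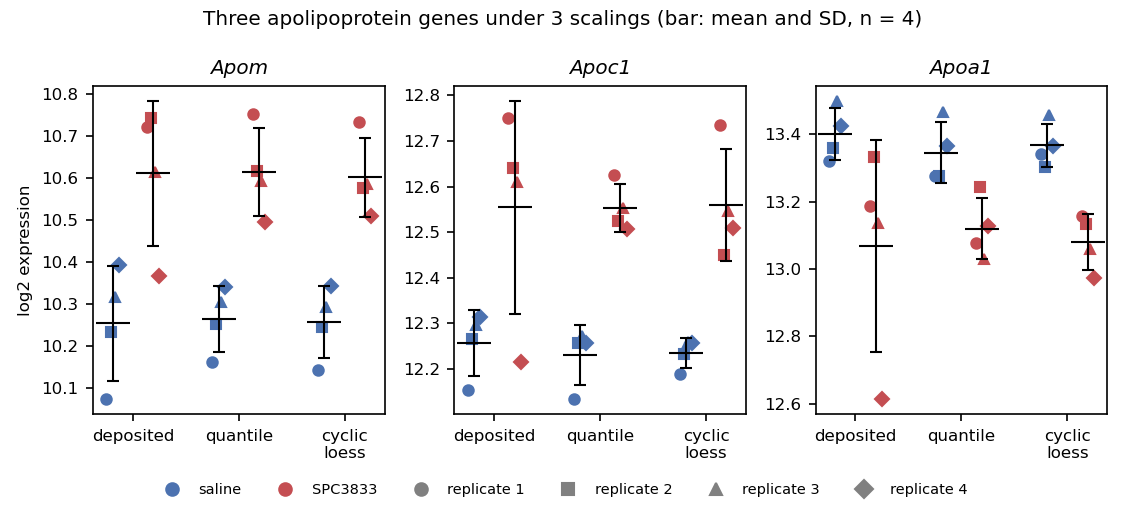
Log2 expression (vertical axis) of Apom, Apoc1 and Apoa1 on the 4 saline arrays (blue) and the 4 SPC3833 arrays (red), as deposited, after quantile normalization and after cyclic loess normalization, with marker shapes for replicate numbers and black bars for the mean and SD (n = 4). Replicate 4 (diamond) overlapped the saline arrays for Apom and Apoc1 in the deposited values and lay above them after either normalization.

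The remaining 6 members, like Apoa1, did not pass the test under either normalization. Apoc3 differed by 0.21 after quantile normalization (limma adjusted p = 0.179) and by 0.13 after cyclic loess (limma adjusted p = 0.522). Apoe differed by 0.06 and -0.12, Apoa2 by 0.11 and 0.02, Apoa5 by -0.16 in both, Apoa4 by -0.06 and -0.05, and Apoc2 by 0.05 and 0.04. A change of 2-fold in either direction lay outside the 95% interval of each of the 9 genes, in the deposited values and after both normalizations.

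Values of neighbouring genes differed in sign. Apoa1 and Apoc3, neither of which passed the test, lie side by side on chromosome 9, were both above 13 in saline and had log2 fold changes of -0.33 and 0.09. The difference between their values within an array was 0.14, 0.29, 0.37 and 0.36 with saline and -0.23, 0.09, -0.22 and -0.15 with SPC3833. The sign was the same on all 4 saline arrays, and the groups did not overlap. Such separation was common, however. It held for 12 of the 36 pairs of members, and for 37.2% of the 133903 pairs formed by the 518 genes at least as bright as the dimmest member.

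Members varied together between mice of a group where replicate 4 was included. Across the 8 arrays, the deviations of 2 members from their group means correlated at 0.08 to 0.98 (Pearson's r, median 0.74 over 36 pairs), and 36 of 36 were above 0. Over the 7 arrays without SPC3833 replicate 4 they ran from -0.75 to 0.92 (median 0.19), with 21 of 36 above 0. These are descriptions of 8 arrays that share a scale. By the same measure, the 3 other genes most like Apom among 11171 brighter than the median gene were ENSMUSG00000046822 (r = 0.985), ENSMUSG00000030711 (r = 0.983) and ENSMUSG00000011158 (r = 0.981). These r values are the highest picked from 11171, and they were not recomputed without SPC3833 replicate 4. None of the 3 genes was called changed, and the measure leaves out the difference between groups.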

How the data were processed

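The deposited table holds log2 values, per their range of 0.88 to 14.18 and not per any header, with 1 value per probe set and array. The submitters' processing notes name affy, with no version. The authors' background correction, normalization and genome build are not given in the sources used here. No pair of arrays within a group had more than 0.134% of values in common, and each array was taken as 1 mouse, per the labels. The number of arrays limits the precision.

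Groups came from the sample titles. SPC3833 and saline were compared two-sided with limma 3.58.1 under R 4.3.3, using lmFit and eBayes with no filter and no covariate, and p-values were adjusted over all genes by Benjamini-Hochberg. Exact permutation tests used scipy 1.17.1, and figures matplotlib 3.10.9. The fit was tested on simulated data in which each gene varied independently. Those data held no shift shared by bright genes on 1 array, such as that of SPC3833 replicate 4. The members, the lists and the naming rule (all members, Apob, and the genes most like the member with the smallest p) were chosen with earlier results of these data known. The 12 planned lists of lipoprotein genes and of cell type markers were not analysed, since no ID was paired with their names. Alternatives were other scalings, a filter on dim genes, other variance models, the replicate block, other thresholds, and each array left out in turn. Cyclic loess together with leaving out SPC3833 replicate 4 was chosen after seeing the data.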

Additional observations from a re-analysis of the deposited data

Results flagged for a closer look

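Of 20 sets of 4 values (the 9 genes and Apob in each group), 2 held 1 array set apart from the other 3 by most of the range. Chance gives a gap above that threshold in about 1 in 20 for a single set. That rate is no measure of the number found, since the sets share the same 8 arrays. SPC3833 replicate 4 was also known beforehand to read low for bright genes, so the 2 are given as a description. Apoe read 13.07 on SPC3833 replicate 4, a gap of 0.938 of the range of its group. Apoa2 read 13.13 on the same array, a gap of 0.870 of the range.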

How the results depend on the processing

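Over 18 alternative fits, Apoa1, Apoa5, Apoc1, Apoc3 and Apom kept the sign of their log2 fold change, and Apoa2, Apoa4, Apoc2 and Apoe did not. Above 0 were Apoa2 after quantile normalization (0.115), cyclic loess (0.0243), array weights (0.0148) and cyclic loess without SPC3833 replicate 4 (0.0893), and Apoe after quantile normalization (0.0555) and that last fit (0.000622). Leaving out 1 array gave -0.422 to -0.182 for Apoa1, -0.254 to -0.0201 for Apoa5, 0.0130 to 0.230 for Apoc3, -0.11 to 0.15 for Apoa2, -0.0989 to 0.0479 for Apoa4, -0.0652 to 0.131 for Apoc2, -0.271 to 0.0617 for Apoe, 0.23 to 0.41 for Apoc1 and 0.30 to 0.44 for Apom. Apoc1 passed the test in 3 of the 18 fits (0.32 after quantile normalization, 0.33 after cyclic loess, 0.41 without SPC3833 replicate 4), with adjusted p from 0.0293 to 0.381 over all 18. Apom passed in 5 (0.35, 0.34 and 0.44 in the same fits, 0.36 among genes above the median, 0.38 after cyclic loess without SPC3833 replicate 4), with adjusted p from 0.0353 to 0.232. The cause of these shifts was not tested.

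Members called higher numbered 2, 2 and 2 in the first 3 fits named for Apoc1, 1 among genes above the median, 1 after cyclic loess without SPC3833 replicate 4 and 1 at adjusted p under 0.1, and 0 to 2 with 1 array left out. No alternative called a member lower. Of all genes, 521 were called higher and 390 lower. The counts were 126 and 170 at adjusted p under 0.01, 956 and 626 under 0.1, and 932 and 620 among genes above the median. Centring on the median gave 276 higher. Quantile normalization gave 612 lower and cyclic loess 642. Cyclic loess without SPC3833 replicate 4 gave 280 higher. Leaving out 1 array gave 218 to 458 higher and 235 to 549 lower.

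With the replicate block, 507 genes were called higher and 349 lower, the adjusted p of Apom was 0.147, and no member was called. The labels do not say that a number pairs mice, so the numbers were not taken to pair them. Deviations of same-numbered arrays correlated at 0.159, 0.0429, -0.0304 and 0.145. Arrays with different numbers were not compared, so these values cannot decide whether mice were paired.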
